A study of Mus musculus with 6 samples.

Results

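The transcript levels of the diabetic wild-type mouse kidney are described here from the 3 libraries labelled WT/Sed, of 6 libraries in the series. These libraries were chosen by their group label, and the description covers the 21859 genes of the protein_coding biotype among 55401 gene identifiers. The series measured messenger RNA of whole kidney tissue from mice made diabetic with streptozotocin (STZ), which destroys pancreatic beta cells. The WT/Sed mice had the WT genotype, and the other group in the series, Cdo1KKO/Sed, is not compared here. Both groups received STZ, so the levels below are those of a diabetic kidney and no non-diabetic group stands beside them. Sed is not spelled out, and no age, sex, strain or sequencing batch is labelled. Each library was labelled as a separate biological replicate, and levels are in TPM, transcript abundance divided by gene length and scaled to the same total in every library, so that genes can be compared. Values after ± are SDs over the 3 libraries (n = 3).

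The kidney filters blood in glomeruli, where podocytes and endothelium form the filter, and the filtrate then passes along a tubule of successive segments. The proximal tubule, with segments S1, S2 and S3, makes up most of the cortex, takes back glucose, amino acids, phosphate and small proteins, makes glucose, burns fatty acids in its many mitochondria and secretes drugs and organic anions. The thick ascending limb, distal convoluted tubule, connecting tubule and collecting duct then set the salt, calcium, acid and water content of the urine.

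The 3 libraries held 28145261 to 43872779 counts and 21993 to 23142 gene identifiers with at least 1 count. Protein_coding genes took 97.0% of the TPM in each of the 3 libraries. No pair of libraries agreed within counting noise, since the chi-square of their counts per degree of freedom was 10.6 to 32.9. Defining tubule markers were present in every library, including Umod at 951 to 1338 TPM and Slc34a1 at 1764 to 2294 TPM, both of which mark kidney tubule. Nothing besides the label says that the libraries came from separate mice, so the spread between them may be partly technical.

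Kap was the most abundant nuclear transcript by a wide margin. Kap encodes the kidney androgen-regulated protein, a proximal tubule product of rodents, and lies on chromosome 6 (GRCm38, 133849851 to 133853762, minus strand). Its level was 102655 TPM in replicate 1, 111483 in replicate 2 and 97857 in replicate 3. Kap alone held 15.9% ± 1.02 of the nuclear protein_coding TPM. Because its transcript is short, it held a smaller share of the reads, 3.70% ± 0.33 of nuclear protein_coding counts. Gpx3, the secreted selenium-dependent glutathione peroxidase of plasma, ranked next at 27692, 26610 and 27434 TPM (chromosome 11, 54902453 to 54910377, plus strand). The highest of its 3 libraries was 1.04 times the lowest.

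The promoters of 4 genes are shown beside the levels and spread described below: Kap and Gpx3 lead all nuclear genes, Cyp2e1, a drug-metabolising P450, is among the leading 30 and holds the motif counted below, and Fabp1, a fatty acid carrier, is among the genes that differed most between libraries. Each run is the 200 bases before the RefSeq transcription start in GRCm38.p6, written 5′ to 3′ on the gene's strand, at chr6:133853668-133853867 (minus) for Kap, chr11:54902654-54902853 (plus) for Gpx3, chr7:140763619-140763818 (plus) for Cyp2e1 and chr6:71199679-71199878 (plus) for Fabp1. Capitals mark TATAAA, searched on the gene's own strand, and GGNCANAGG, searched on both strands, a piece of the direct repeat that receptors such as HNF4 alpha and the PPARs bind.
Kap: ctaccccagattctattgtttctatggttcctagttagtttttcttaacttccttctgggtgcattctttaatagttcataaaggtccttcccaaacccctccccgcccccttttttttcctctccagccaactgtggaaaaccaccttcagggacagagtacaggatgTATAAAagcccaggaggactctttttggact
Gpx3: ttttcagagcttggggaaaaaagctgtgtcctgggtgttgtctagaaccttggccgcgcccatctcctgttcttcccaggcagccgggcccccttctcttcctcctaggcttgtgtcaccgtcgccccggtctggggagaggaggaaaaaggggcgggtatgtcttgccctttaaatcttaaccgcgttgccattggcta
Cyp2e1: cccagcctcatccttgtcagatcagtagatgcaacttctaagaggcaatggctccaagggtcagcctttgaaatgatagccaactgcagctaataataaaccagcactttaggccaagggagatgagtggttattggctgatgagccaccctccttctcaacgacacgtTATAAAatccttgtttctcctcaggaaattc
Fabp1: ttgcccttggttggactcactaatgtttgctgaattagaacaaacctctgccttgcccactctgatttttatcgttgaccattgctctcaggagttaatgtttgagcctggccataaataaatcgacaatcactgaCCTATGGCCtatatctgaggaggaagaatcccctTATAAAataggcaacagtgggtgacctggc

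Kap and Cyp2e1 each held TATAAA starting at position -31, counted back from the base before the start, and Fabp1 held it at position -30. Gpx3 had no such match in its window. The Fabp1 promoter also held GGNCANAGG on the minus strand from position -64 to -56, so that its complement CCTATGGCC is in capitals above. Such matches are descriptions of letters and were not tied to binding of any factor.

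TATAAA between positions -50 and -6 was found in 5 of the 26 leading nuclear genes with a promoter entry (19.2%): Kap, Cyp2e1, Miox, Acy3 and Acsm2. Over all 16802 protein_coding genes with an entry the share was 3.33%. By class of mean TPM, the share was 12.8% at 1000 TPM or more (5 of 39, the same 5 genes). It was 3.31% at 100 to 1000 TPM, 1.04% at 10 to 100 TPM and 1.40% at 1 to 10 TPM. Under 1 TPM it was 3.86%, and it was 7.56% among genes with 0 counts in all 3 libraries. Both ends of the abundance scale therefore held more such promoters than the middle, with the upper end resting on 5 promoters. The median observed over expected CpG of the promoter was 0.33 in the leading genes, 0.80 at 10 to 100 TPM and 0.17 in genes with 0 counts. GGNCANAGG was counted over the whole 300 bases of an entry, from 250 before the start to 50 after it, and so beyond the runs printed above. It was found in 3 of the 26 leading genes (11.5%), Slc27a2, Miox and Acy3, against 8.24% of all promoters.

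Transcript abundance was concentrated in few genes. The 10 leading nuclear genes held 24.3% ± 0.99 of the nuclear protein_coding TPM, the leading 100 held 39.98% ± 0.86 and the leading 1000 held 70.5% ± 0.50. In replicates 1, 2 and 3, 244, 226 and 254 genes made up 50% of that TPM. Without Kap the same share took 429, 424 and 433 genes. The share of the leading 10 depended on the unit: by CPM, counts scaled to the library total without division by gene length, it was 10.5%.

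**Figure D1:**
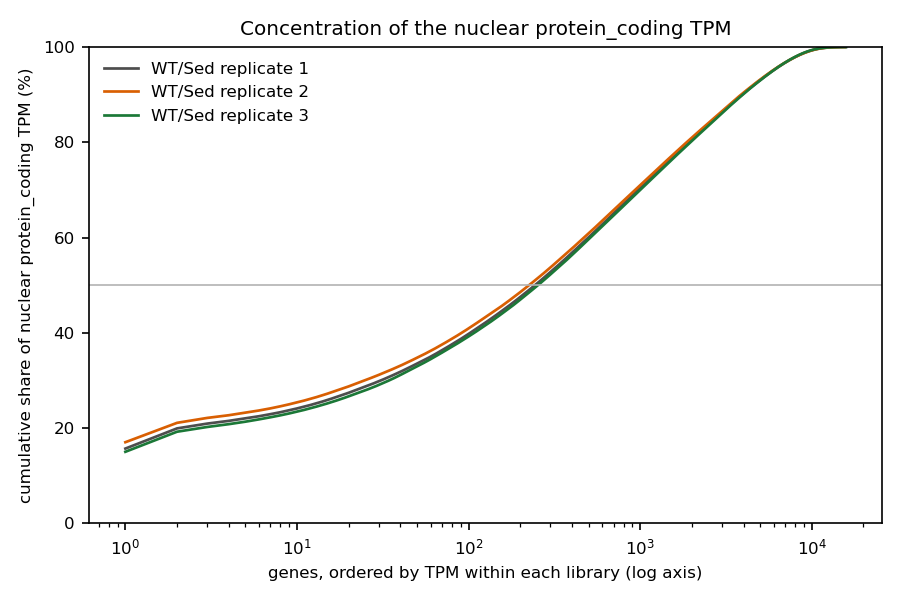
Cumulative share of the nuclear protein_coding TPM (vertical axis, percent) against the number of genes in descending order of TPM within each library (horizontal log axis), with 1 line for each WT/Sed library and a grey line at 50%. The lines start at 15.03 to 17.04% with Kap alone and cross 50% at 226 to 254 genes.

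Of the 21859 protein_coding genes, 5233 had 0 counts in all 3 libraries, and 14860 had a count in all 3. A mean of at least 1 TPM was reached by 11768 genes, at least 10 TPM by 6605, at least 100 TPM by 968 and at least 1000 TPM by 57. The 9 highest means, from 21489 TPM upward, belonged to Kap, Gpx3 and 7 genes of the mitochondrial genome. At least 1 TPM in every library was reached by 11374 genes.

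The genes ranked after Kap and Gpx3 were mostly enzymes and carriers of the proximal tubule. Slc27a2, a fatty acid transporter and very-long-chain acyl-CoA synthetase, had 3738 ± 78.0 TPM. Cltrn, collectrin, which brings amino acid carriers to the brush border, had 3452 ± 74.2 TPM. The highest library was 1.04 times the lowest for Slc27a2 and for Cltrn.

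Gluconeogenesis and sugar handling were represented by Pck1, the rate-limiting enzyme of gluconeogenesis (2878 ± 23.3 TPM), Sord, which oxidises sorbitol to fructose (1897 ± 135), Miox, which opens inositol (2168 ± 236), and Ldhb, a lactate dehydrogenase subunit (1387 ± 14.6). Pck1 varied little, with 2865, 2905 and 2864 TPM. Ass1, which makes argininosuccinate in renal arginine synthesis, was as even at 2133, 2125 and 2141 TPM.

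Enzymes that modify drugs, fatty acids and steroids formed another block of the leading 30. Cyp4b1 had 2520, 2984 and 2120 TPM, Cyp2e1 had 2337 ± 112 and Cyp2j5, an epoxygenase of arachidonic acid, had 1973 ± 32.8. Sult1d1, a sulfotransferase, had 2198 ± 307 TPM and Ugt2b38, a glucuronosyltransferase, had 1622 ± 238 TPM. Akr1c21, a hydroxysteroid dehydrogenase, had 2512 ± 210 TPM, Acsm2, a medium-chain acyl-CoA synthetase, 1631 ± 62.8, and Acy3, an aminoacylase, 1868, 2233 and 1479. Acy3 was the least even of the leading 30, with a coefficient of variation (CV, the SD as a percentage of the mean) of 20.3%.

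Secreted and storage proteins were the third block. Klk1, tissue kallikrein of the connecting tubule, had 2651, 2856 and 2560 TPM. Selenop, a selenium carrier, was the most even of the 30 at 1885, 1877 and 1882 TPM (CV 0.21%). Spink1, a trypsin inhibitor, had 1567 ± 97.7 TPM, Fth1, the ferritin heavy chain, 2319 ± 32.3, Tcn2, the vitamin B12 carrier of plasma, 1435 ± 21.97, and Psap, a lysosomal sphingolipid activator, 1568 ± 186.

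The remaining leading genes served transport and general cell work. Slc34a1, the main sodium-phosphate cotransporter of the brush border, had 2084, 2294 and 1764 TPM, lowest in replicate 3. Atp1b1, the beta subunit of the sodium pump, had 1485 ± 32.4 TPM. Gpx1, the intracellular glutathione peroxidase, had 2584 ± 122 TPM, Eef1a1, an elongation factor, 2915 ± 258, and Cox6b1, a subunit of cytochrome c oxidase, 1467 ± 32.5. Of the 30 genes, 26 were among the leading 30 of all 3 libraries, and the median CV of the 30 was 4.75%.

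**Figure D2:**
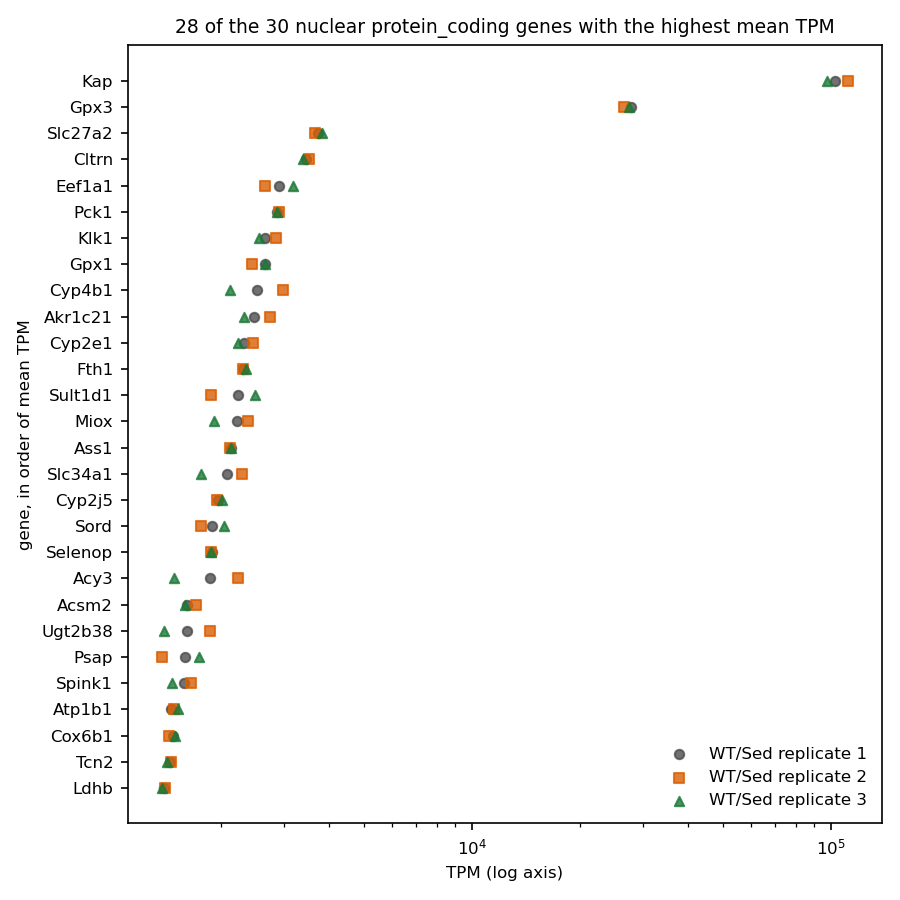
TPM in each WT/Sed library (horizontal log axis, 1 marker shape and colour for each replicate) for 28 of the 30 nuclear protein_coding genes with the highest mean TPM (vertical axis). Kap lies between 97857 and 111483 TPM and the other genes plotted lie between 1371 and 27692 TPM.

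Mitochondrially encoded proteins took 31.6, 31.6 and 31.9% of the TPM, and 15.7 to 16.0% of the counts. They are subunits of the respiratory chain and of ATP synthase. The level was highest for mt-Co1 (70045 ± 777 TPM), followed by mt-Cytb (68716 ± 1761), mt-Nd1 (56521 ± 820), mt-Nd2 (48699 ± 1371) and mt-Nd6 (25651 ± 64.4). The gap between mt-Co1 and mt-Cytb, and that between mt-Nd6 and mt-Nd5 (25289 ± 1590), was smaller than the larger SD of each pair. mt-Nd6 is annotated on the minus strand and mt-Nd5 beside it on the plus strand. No strand setting was named, so the level of mt-Nd6 may hold reads from the opposite strand.

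The other 6 of the 13 mitochondrial genes were listed far lower, between 39.3 TPM for mt-Atp8 and 198 TPM for mt-Nd3. For 5 of these 6 genes, all but mt-Atp8, the reference holds nuclear pseudogenes that are almost identical: Gm28661 matched 99.6% of mt-Co2 at 100% identity, Gm10925 99.6% of mt-Atp6 at 100%, and Gm28437 99.9% of mt-Co3 at 100%. Those copies were themselves listed, at 133 TPM for Gm28661, 176 for Gm10925 and 89.7 for Gm28437. How the authors' counting treated reads that match a gene and its copy is not given in the sources used here, so the low values are uncertain and their order is not interpreted. Genes listed high had such copies as well: Gm13340 matched mt-Co1 over its whole length at 97.6% identity, and Gm28439 matched 63.6% of mt-Nd4 at 100%.

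Tubule segments differed widely in the summed TPM of their marker lists. Fewer cells of a type and less RNA per cell cannot be told apart in bulk tissue, here and in every list below. The 12 proximal tubule markers shared by all segments summed to 16747, 16826 and 16345 TPM, 2.55% of nuclear protein_coding TPM, and all 12 were above 1 TPM. Among those not yet named, Cubn, the receptor for filtered proteins, had 70.1 ± 13.5 TPM and Slc4a4, the basolateral bicarbonate cotransporter, 232 ± 37.2.

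Within the proximal tubule, all markers of single segments had a mean above 1 TPM and none was 2-fold apart between libraries. Of all 21859 protein_coding genes, 11768 reached a mean of 1 TPM, and 4.57% of those were 2-fold apart. The 7 S1 markers summed to 1061 ± 79.3 TPM. Slc5a2, the glucose carrier SGLT2, led them at 256, 256 and 248 TPM, followed by Slc6a19, which takes up neutral amino acids (222, 186 and 250), and Slc5a12, a lactate carrier (193, 164 and 228). Slc5a2 was even across libraries, while Slc6a19 and Slc5a12 were lowest in replicate 2 and highest in replicate 3.

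The 7 S2 markers summed to 2320 ± 97.0 TPM. They were led by Slc47a1, which extrudes organic cations into urine (575 ± 41.1 TPM), and by Slc22a6, the organic anion carrier OAT1 (455 ± 21.3). Slc22a2, a cation carrier, had 277 ± 14.3 TPM. The 10 S3 markers summed to 3128 ± 110 TPM. Slc7a13, an aspartate and glutamate carrier, led these at 1083 ± 112 TPM, ahead of Slc6a18, an amino acid carrier (550 ± 4.31), and Cyp7b1, an oxysterol hydroxylase (338, 262 and 424). Sums of lists with different numbers of genes give no share of cells.

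**Figure D3:**
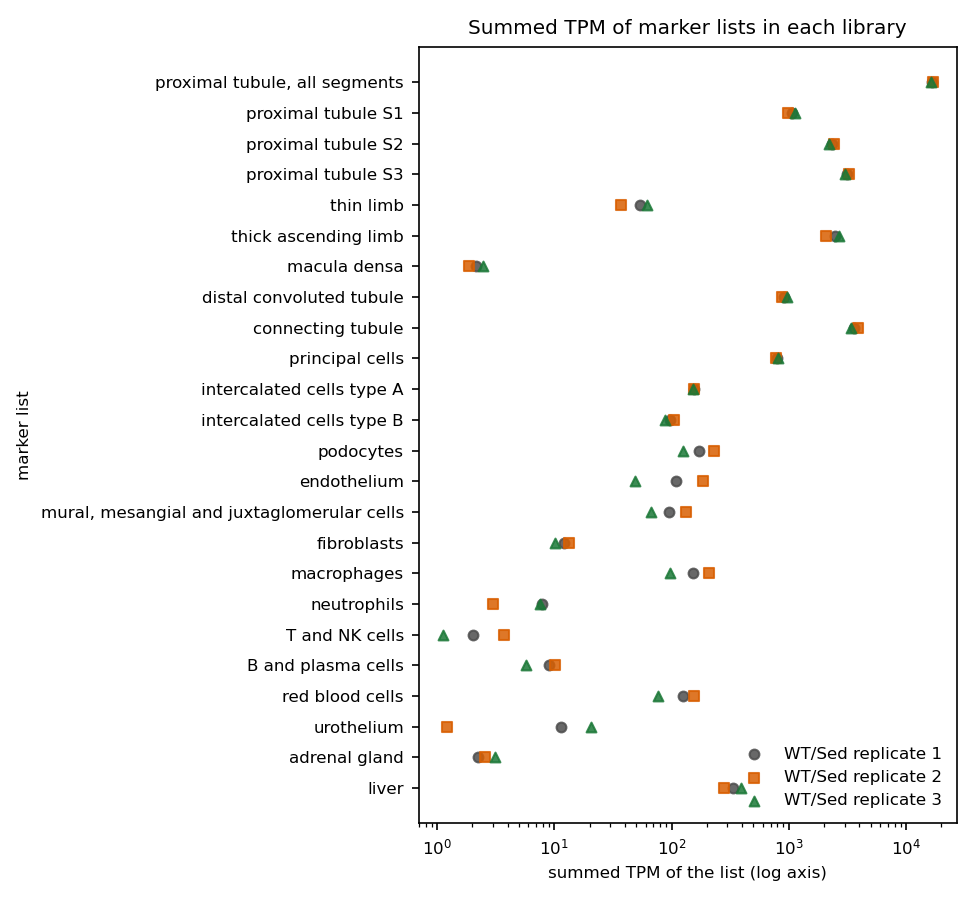
Summed TPM (horizontal log axis) of each marker list whose mean sum is at least 1 TPM (vertical axis), with 1 marker shape and colour for each WT/Sed library. Tubule lists from the proximal tubule to type B intercalated cells mostly overlap across libraries, while the endothelium spreads from 48.7 to 186 TPM and the urothelium from 1.22 to 20.5 TPM.

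The loop of Henle was represented mainly by its thick limb. The 12 thick ascending limb markers summed to 2468, 2097 and 2691 TPM. Umod, uromodulin, the most abundant urinary protein of healthy kidney, had 1209, 951 and 1338 TPM, and Slc12a1, the furosemide-sensitive NKCC2 cotransporter, had 388, 321 and 454. Both were lowest in replicate 2. Egf, the growth factor precursor of this segment and of the distal convoluted tubule, was more even at 188, 180 and 197 TPM. The 6 thin limb markers reached 50.8 ± 12.4 TPM together. Slc14a2, the urea transporter of the inner medulla, had 11.98, 5.28 and 16.3 TPM.

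The marker lists of the distal nephron were dominated by a few transcripts. Kcnj16, a basolateral potassium channel, and Slc12a3, the thiazide-sensitive cotransporter NCC, had 564 ± 73.7 and 205 ± 20.6 TPM in the distal convoluted tubule list. Kcnj16 gave 61.4% of that list's TPM, and bulk tissue does not show which segment its reads came from. In the connecting tubule list, Klk1 gave 73.5% of the 3660 TPM, followed by S100g, calbindin-D9k (813 ± 94.4 TPM), and Calb1, calbindin-D28k (135 ± 10.4). Trpv5, the calcium channel of this segment, had 12.1 ± 0.63 TPM.

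In the collecting duct, the 10 principal cell markers summed to 797, 785 and 812 TPM. Aqp2, the vasopressin-regulated water channel, led at 467, 424 and 516 TPM, with Aqp3, the basolateral water channel, at 139 ± 13.7 and Scnn1b, the beta subunit of the epithelial sodium channel, at 30.6 ± 3.50. Type A intercalated cells, which secrete acid, had a sum of 154 ± 2.68 TPM led by the proton pump subunit Atp6v1g3 (51.9 ± 1.97). Type B cells, which secrete bicarbonate, had a sum of 97.2 ± 8.56 TPM led by Slc26a4, pendrin (50.1 ± 2.17).

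Markers of cells outside the tubule gave sums below those of the proximal tubule and thick limb lists, and those of podocytes and macrophages were close to the sum for type A intercalated cells. The 11 podocyte markers summed to 175 ± 51.5 TPM, led by Podxl, podocalyxin (64.7, 90.4 and 47.6). The 11 endothelial markers summed to 115 ± 69.0 TPM and the 10 mural, mesangial and juxtaglomerular markers to 98.4 ± 33.6 TPM. Renin, Ren1, made up 60.9% of the last sum with 56.5, 79.9 and 43.4 TPM. Macrophage markers summed to 153 ± 56.2 TPM, of which Cd74, the MHC class II invariant chain, gave 55.1%. Fibroblast markers summed to 11.9 ± 1.61 TPM.

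Markers of T and NK cells, adipocytes, skeletal muscle and adrenal gland were at or near the lower limit. Among the T and NK cell markers, none of 8 reached a mean of 1 TPM. In the adipocyte list, Plin1 and Lep had 0 counts in all 3 libraries and the sum was 0.62 ± 0.44 TPM. The skeletal muscle genes Acta1, Myh4 and Ckm had 0 counts, as had the adrenal genes Cyp11a1, Mc2r, Th, Dbh, Pnmt and Chga. Star was the only adrenal marker above 1 TPM, at 2.62 ± 0.47. A count of 0 allows up to 3 counts, which equal 0.0684 to 0.107 CPM in these libraries. Hemoglobin genes were present, with Hbb-bs at 90.1, 108 and 53.5 TPM, and the hemoglobin genes share near-identical sequence, so their split is uncertain.

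Of the 8 liver markers, 1 had a mean of at least 100 TPM: Ttr, transthyretin, at 232 ± 14.6 TPM. Serpina1a, another of them, had 83.3, 45.5 and 119 TPM. Alb, albumin, had 6.67 ± 0.77 TPM and Tat had 0 counts. Urothelial markers were uneven. Psca, a surface antigen of urothelium, had 7.33 TPM in replicate 1, 0 in replicate 2 and 13.9 in replicate 3, and Upk3a, a uroplakin, had 0.75, 0 and 2.36. Replicate 2 was listed at 0 for both, and the sum over the 6 urothelial markers ran from 1.22 to 20.5 TPM.

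Solute carriers were the broadest transport family. Of 360 members matched by symbol, 252 had a mean of at least 1 TPM, 49 at least 100 TPM and 29 no count, and together they held 3.84% of nuclear protein_coding TPM. Shares by SLC family were taken over 358 members in 51 families. SLC27 took 15.2% of the TPM of these 358, nearly all of it Slc27a2. The mitochondrial carriers SLC25 took 15.02%, with 40 of 47 members above 1 TPM and the ATP-ADP exchanger Slc25a5 in the lead (1316 ± 31.2 TPM). SLC22, the organic ion carriers, took 14.8%, led by Slc22a12, the urate exchanger URAT1. SLC34 took 8.42%, of which Slc34a1 held 97.6%. The 360 members as a whole were even, with a summed TPM of 25214, 25088 and 24845.

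Channels, pumps and junction proteins each had 1 to 3 leading members. Aqp1, the water channel of proximal tubule and thin descending limb, gave 47.4% of the aquaporin TPM (637, 541 and 685 TPM). Cldn2, which forms the cation-permeable junction of the proximal tubule, gave 56.2% of the claudin TPM (433 ± 71.7). Kcnj15 led the potassium channels at 605 ± 41.2 TPM. Atp1b1 and Fxyd2, the regulatory gamma subunit (1116 ± 30.1 TPM), were among the leading members of the sodium pump family, in which 9 of 15 members were above 1 TPM. ABC transporters summed to 894 ± 72.0 TPM, led by the peroxisomal carrier Abcd3 (214 ± 28.2) and the urate and drug exporter Abcg2 (172 ± 13.5).

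Metabolic enzyme families were carried by single genes to different degrees. Cytochromes P450 held 1.82% of nuclear protein_coding TPM, with 44 of 99 members above 1 TPM. Cyp4b1 gave 21.4% of their sum, ahead of Cyp2e1, Cyp2j5 and Cyp2a4 (884 ± 31.9 TPM). Cyp2a4 is 98.2% identical to Cyp2a5 over its transcript, so reads of these genes may have been split. Sult1d1 gave 93.1% of the sulfotransferase TPM, Ugt2b38 gave 85.5% of the glucuronosyltransferase TPM and Mt1 gave 97.2% of the metallothionein TPM. Ugt2b38 is 95.5% identical to Ugt2b5 over 98.4% of its transcript, so the reads of Ugt2b38 and Ugt2b5 may also have been split. Glutathione transferases were spread more evenly, with Gstm1 at 26.1% (519 ± 9.36 TPM).

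Glutathione peroxidases and peroxiredoxins, which remove peroxides, held 5.03% of nuclear protein_coding TPM, and Gpx3 made up 82.9% of them. Gpx1, Prdx5 (1028 ± 65.7 TPM) and Prdx1 (800 ± 13.3) followed. In the list of antioxidant and NRF2 target genes, 26 of 27 were above 1 TPM and none of the 26 was 2-fold apart between libraries. Of all 21859 protein_coding genes, 11768 reached a mean of 1 TPM, and 4.57% of those were 2-fold apart. That share was 1.22% at 10 to 100 TPM and 1.10% at 100 to 1000 TPM, so 0 of 26 does not set this list apart. Cat, catalase, had 1044, 1048 and 1034 TPM.

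The machinery of respiration and translation was abundant and even. Nuclear subunits of complex I summed to 7787 ± 206 TPM with all 37 above 1 TPM, those of complex III to 3968 ± 99.7, those of complex IV to 6580 ± 191 and those of ATP synthase to 6652 ± 67.3. Atp5b and Atp5a1, the beta and alpha subunits of ATP synthase, had 1302 ± 80.0 and 1264 ± 49.7 TPM. Cytosolic ribosomal proteins held 3.12% of nuclear protein_coding TPM, with 88 of 90 above 1 TPM and Rps15 in the lead at 964 ± 42.6. Their median CV was 4.11%, and their median member had 189 TPM. Over all protein_coding genes of 100 to 1000 TPM the median CV was 4.78%, near that of the ribosomal proteins. It was 8.06% over the 11768 protein_coding genes of at least 1 TPM, most of which are less abundant. Proteasome subunits summed to 3229, 3229 and 3209 TPM.

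Major urinary proteins and olfactory receptors, families that serve other organs, had few or no reads. All 22 major urinary protein genes, which are products of rodent liver, had 0 counts in the 3 libraries. Of 1104 olfactory receptor genes, 1044 had 0 counts and 1, Olfr1393, had a mean of at least 1 TPM (1.08 ± 0.36). Among 53 keratins, 34 had 0 counts, and Krt8, the keratin of simple epithelia, gave 60.3% of the keratin TPM (81.6 ± 4.10). Of 44 collagens, 40 had a count. Collagen TPM came mainly from the basement membrane chains Col4a3 (116 ± 2.16) and Col4a4 (93.4 ± 1.24), while the fibrillar Col1a1 had 1.29 ± 0.32.

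The listed kidney transcription factors were nearly all detected. Of these 30 genes, 29 had a mean of at least 1 TPM, as had 11768 of all 21859 protein_coding genes. Hnf4a, which sets the proximal tubule program, led at 396, 356 and 416 TPM, followed by Nr1h4, the bile acid receptor FXR (233 ± 26.6). Tfcp2l1, a collecting duct and distal factor, had 108 ± 3.83 TPM. Wt1, the podocyte factor, had 4.61, 5.99 and 3.28 TPM. None of the 29 was 2-fold apart between libraries, against 4.57% of all genes of at least 1 TPM. Their median CV was 12.3%, above the 8.06% of all such genes.

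Hormone receptors were led by those for growth hormone (Ghr, 275 ± 33.3 TPM), parathyroid hormone (Pth1r, 263 ± 7.93) and vitamin D (Vdr, 132 ± 3.11). Agtr1b, an angiotensin receptor gene, had 0 counts. Among secreted products, Spp1, osteopontin, had 1302, 1095 and 1467 TPM. Cyp24a1, which inactivates vitamin D, had 50.8, 78.4 and 35.5 TPM, and Igfbp3, which binds insulin-like growth factors, had 41.7, 66.4 and 17.6. Both were highest in replicate 2 and lowest in replicate 3, and the ratio of highest to lowest reached 3.78 for Igfbp3.

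Central carbon metabolism was high and uniform. The 25 genes of gluconeogenesis, glycolysis and the polyol pathway summed to 19207, 19260 and 19166 TPM, a CV of 0.24%, although Khk, fructokinase, ranged from 440 to 632 TPM and G6pc, which releases free glucose, from 575 to 791. All 20 citrate cycle genes were above 1 TPM, led by Mdh1 (1137 ± 25.1), and their median CV was 3.12%. The 17 genes of sulfur amino acid and taurine metabolism summed to 2758 ± 90.5 TPM. Cdo1, cysteine dioxygenase and the gene targeted in the other group of the series, had 250, 260 and 252 TPM, within 1.04-fold. Gadl1 had 0 counts.

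Fatty acid oxidation genes had a median CV of 17.2%, above the 3.12% of the citrate cycle genes. The sum over its 22 genes was 6516, 5174 and 7648 TPM, with replicate 3 highest in 20 of the 22, as it was in 46.9% of all 11768 genes of at least 1 TPM. Ehhadh, the peroxisomal bifunctional enzyme, led at 1201, 629 and 1661 TPM. Acadm, the medium-chain dehydrogenase of mitochondria, had 688, 548 and 822. The order of replicate 2 lowest, replicate 1 between and replicate 3 highest held in both genes, of which Ehhadh was 2-fold apart.

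Tubular injury genes were low apart from Spp1 and Clu, clusterin (184 ± 24.1 TPM). Havcr1, KIM-1, a marker of proximal tubule damage, had 10.5, 3.52 and 16.3 TPM and Lcn2, the lipocalin NGAL, had 4.34, 0.77 and 5.25. Both were lowest in replicate 2. Cell cycle genes were low, with 10 of 17 above 1 TPM and Mki67, the Ki-67 antigen, at 1.29, 0.55 and 1.69.

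Spread among the 3 libraries was smaller in more abundant genes. The median CV was 8.06% over the 11768 genes of at least 1 TPM, and 58.4% of these genes were within 1.2-fold across the libraries. By class it was 11.1% at 1 to 10 TPM, 6.55% at 10 to 100, 4.78% at 100 to 1000 and 4.08% at 1000 TPM or more. Counting error alone gives medians of 5.78, 2.53, 1.12 and 0.38% in these classes. The biological coefficient of variation from edgeR, the spread beyond counting, was 13.8%. It covers the 15472 identifiers of any biotype that passed a filter on low counts, not the 11768 genes above.

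**Figure D4:**
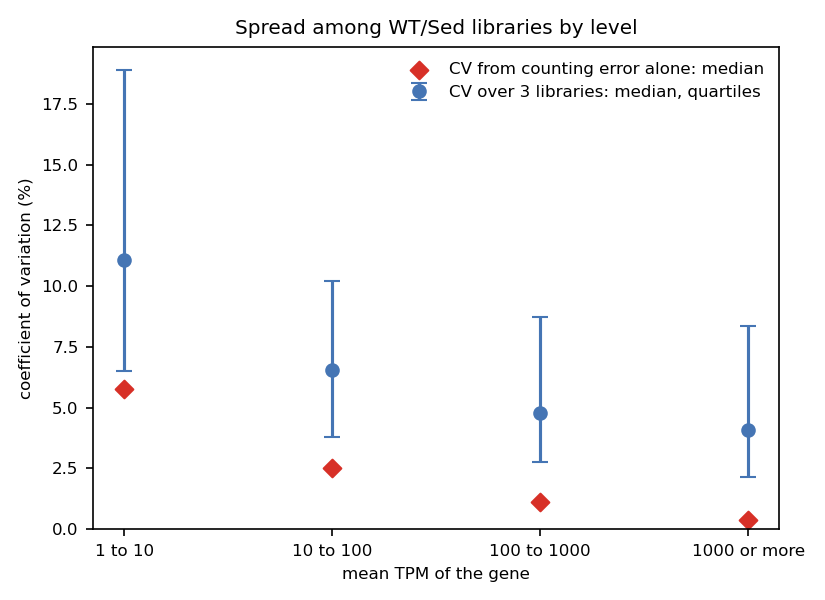
CV over the 3 WT/Sed libraries (vertical axis, percent; points are medians over genes and bars span the quartiles) by class of mean TPM (horizontal axis), with diamonds for the median CV that counting error alone gives. The median falls from 11.1% to 4.08% while the counting value falls from 5.78% to 0.38%.

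Replicates 2 and 3 stood farthest apart and replicate 1 lay between them. A ratio of highest to lowest library of at least 2 was reached by 538 of the 11768 genes (4.57%). Replicate 2 was highest in 373 of these (3.17% of all genes tested), replicate 3 in 113 (0.96%) and replicate 1 in 52. Replicate 1 was the middle library in 466 of the 538 genes, against 60.7% of all 11768. The 2-fold count was 492 between replicates 2 and 3, 149 between 1 and 3 and 121 between 1 and 2. Leaving out replicate 2 or replicate 3 thus cut the count to 149 or 121, and it was 239 after 1 TPM was added to each value. Across these genes the Pearson correlation of log2(TPM + 1) was 0.984 between replicates 2 and 3, 0.994 between 1 and 3 and 0.993 between 1 and 2. Genes share a library and are not replicates, so these values are descriptions.

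Gene length went with the same difference. The median difference of replicate 2 minus replicate 3 in log2(TPM + 1) was 0.04 in the shortest genes, -0.05 in the middle and -0.13 in the longest, splitting the 11768 genes equally by length. Over all of them it was -0.05. Replicate 2 was also the shallowest library, with 28145261 counts. Length was taken as counts over TPM, each summed over these 3 libraries. A gene high in the shallowest library thus comes out shorter, so this length is not independent of the difference. The part of depth and of gene length in the differences below was not tested.

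Among genes of at least 10 TPM, the widest ratio of highest to lowest library belonged to a gene controlled by PPAR alpha, a receptor that senses fatty acids and is active in fasting. Cyp4a14, a fatty acid omega-hydroxylase (chromosome 4, 115486200 to 115496142, minus strand), had 619 TPM in replicate 1, 27.9 in replicate 2 and 1091 in replicate 3, a ratio of 39.1. Cyp4a10, a related hydroxylase, had 905, 336 and 1331 TPM, and Pdk4, which blocks glucose oxidation by inhibiting pyruvate dehydrogenase, had 176, 69.4 and 270. All 3 were lowest in replicate 2 and highest in replicate 3. Cyp4a10 shares near-identical sequence with Cyp4a31 and Cyp4a32, and its level may hold their reads.

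The list of PPAR alpha targets and fasting genes had 13 of 16 members with a mean of at least 1 TPM. It shares members with the fatty acid oxidation list above, Ehhadh and Acadm among them, so the counts of these lists are not independent. Replicate 3 was highest in all 13, against 46.9% of all genes. A 2-fold ratio was reached by 8 of the 13, where 0.96% of all genes had such a ratio with replicate 3 highest. The median of replicate 2 minus replicate 3 was -1.40 in log2(TPM + 1), against -0.05 for all genes. Acot1, a cytosolic thioesterase, had 64.7, 25.4 and 93.6 TPM, and Fabp1, whose promoter is shown above, had 11.2, 3.64 and 19.8. Fgf21, a fasting hormone, had 0 counts in all 3 libraries. Ppara itself had 20.9, 14.2 and 25.5 TPM. Of the 16 members, 10 had a promoter entry, and GGNCANAGG was present in 2 of them, Fabp1 and Pdk4, against 8.24% of all promoters.

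Endothelial genes differed in the opposite direction. All 11 endothelial markers were highest in replicate 2 and lowest in replicate 3, and all 11 were at least 2-fold apart, where 3.17% of all genes were 2-fold apart with replicate 2 highest. Their summed level was 109, 186 and 48.7 TPM and their median of replicate 2 minus replicate 3 was 1.60 in log2(TPM + 1). Plvap, the diaphragm protein of fenestrated capillaries, had 30.9, 60.01 and 12.3 TPM. Kdr, the VEGF receptor, had 6.98, 10.8 and 2.42, and Emcn, endomucin, had 10.3, 17.1 and 4.61. Eng, an endothelial TGF-beta co-receptor, had 13.8, 22.8 and 6.84. None of the endothelial markers was at 0 in any library.

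Genes outside the endothelial list with this order were also among the 20 widest ratios. Esm1, which endothelial tip cells secrete, had 14.7, 28.3 and 3.52 TPM, Fabp4, a fatty acid binding protein of adipocytes and capillaries, had 17.6, 30.8 and 5.96, and Gimap4, a GTPase of immune cells, had 16.2, 21.8 and 5.73. Gadd45g, a stress-inducible growth arrest gene, had 149, 246 and 68.6, and Bcl6, a transcriptional repressor, 13.7, 23.8 and 5.77. Ces1g, Igfbp3 and Plpp1 were also in this set and highest in replicate 2. Of the 20, Gm17662 rested on 13 counts and Gm17720 on 14 counts in all. Serpina1b, highest in replicate 3 with 41.5, 13.9 and 65.4 TPM, shares near-identical sequence with Serpina1a and Serpina1d.

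Vascular wall, podocyte, macrophage and red cell markers mostly had the same order as the endothelium, with smaller differences. Replicate 2 was the highest library in 32.6% of all 11768 genes. Macrophage markers were highest there in all 7 members above 1 TPM, with a sum of 152, 210 and 97.2 TPM and a median difference of 1.05. Red cell markers were highest in replicate 2 in 5 of 5, with sums of 126, 155 and 77.2 TPM. Podocyte markers had sums of 171, 229 and 126 TPM, with replicate 2 highest in 8 of 10. Mural markers had sums of 94.8, 134 and 66.7 TPM, with replicate 2 highest in 7 of 9, including Acta2, smooth muscle actin (13.5, 20.8 and 7.39). Neutrophil markers, of which 2 reached a mean of 1 TPM, were instead lowest in replicate 2, with sums of 7.84, 3.02 and 7.50 TPM. Since hemoglobin RNA comes from blood left in the tissue, these values stand beside the endothelial ones, and the part of blood content was not tested.

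The MHC gene list was highest in replicate 2 in 13 of 13 members above 1 TPM, against 32.6% of all genes, with H2-Aa, a class II chain, at 21.1, 35.1 and 11.96 TPM. In the wider MHC class I and II family matched by symbol it was 13 of 15, and replicate 1 was highest in the other 2. Interferon response genes were highest in replicate 2 in 15 of 18, and 6 of the 18 were 2-fold apart in that direction, against 3.17% of all genes. Rsad2, viperin, had 5.87, 10.9 and 2.80 TPM, while Irgm1 was even at 16.9, 16.7 and 16.8. Immediate early genes also had replicate 2 highest in 15 of 18, of which 4 were 2-fold apart. Among them, Klf2, a flow-responsive endothelial factor, had 9.20, 14.2 and 3.91 TPM and Myc had 15.7, 22.4 and 8.42. Cxcl1, a neutrophil attractant, had 5.42, 9.23 and 0.60 TPM.

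**Figure D5:**
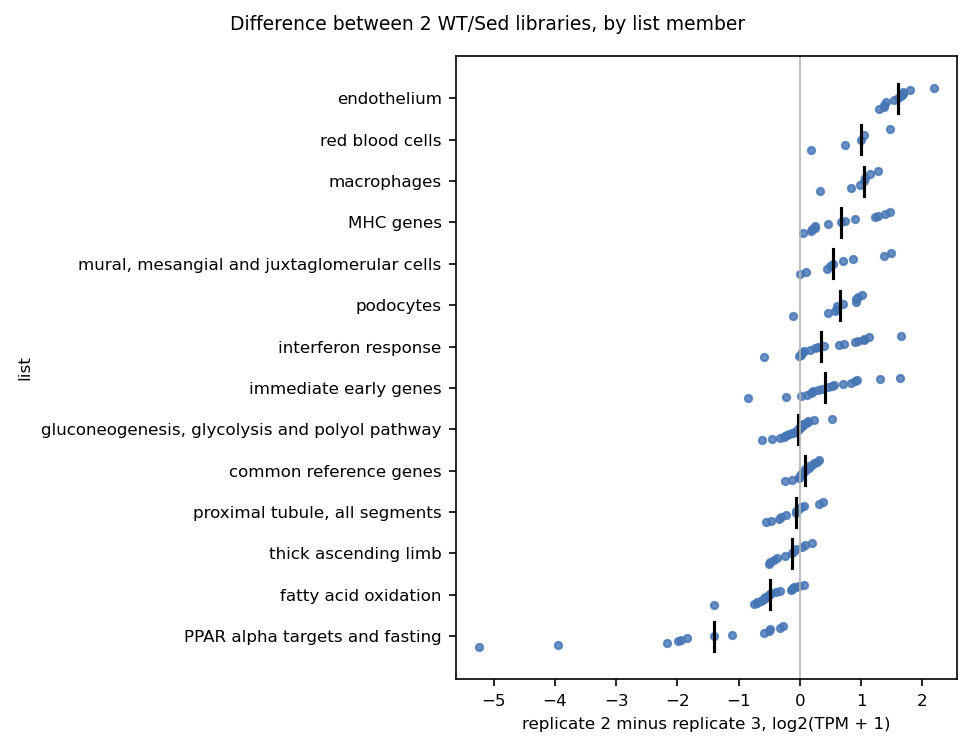
Difference of replicate 2 minus replicate 3 in log2(TPM + 1) (horizontal axis) for each member with a mean of at least 1 TPM of 14 lists (vertical axis), with 1 point for each gene and a black bar at the list's median. Endothelial genes all lie right of 0 with a median of 1.60, PPAR alpha and fasting genes all lie left with a median of -1.40, and the proximal tubule and reference gene lists centre near 0.

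Most tubule lists differed little between the same libraries. The median of replicate 2 minus replicate 3 was -0.06 for the shared proximal tubule markers, -0.24 for S1, 0.13 for S2, 0.05 for S3 and -0.13 for the thick ascending limb. In principal cells it was 0.24 and in type B intercalated cells 0.25. None of the members of these lists with a mean of at least 1 TPM was 2-fold apart, against 4.57% of all such genes. The thin limb list had a wider median of -0.35 and summed to 53.5, 37.3 and 61.7 TPM, and its member Slc14a2 was 2-fold apart.

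The smallest CVs among genes of at least 10 TPM belonged to genes of different kinds. Rpl7a, a ribosomal protein, had 551, 550 and 551 TPM, and Ubb, polyubiquitin, had 721, 719 and 721. Car4, the membrane-bound carbonic anhydrase of the proximal tubule, had 253.0, 253.6 and 252.7 TPM. Mapre2, Pgrmc2, Rnpep, Cryz, Zkscan3, Ap1b1 and Ccnc completed the 10 smallest CVs, from 0.024% for Mapre2 to 0.19% for Ccnc. They are the extremes of 6605 genes of at least 10 TPM. Among common reference genes, Rplp0 was even at 545, 530 and 526 TPM, Gapdh had 949, 1004 and 857 and Actb had 408, 469 and 377, lowest in replicate 3. Gapdh has near-identical processed copies in the reference.

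Sex-linked transcripts were at similar levels in the 3 libraries. The Y-linked genes Eif2s3y and Ddx3y had 49.0, 48.6 and 52.0 TPM and 43.3, 36.5 and 50.4 TPM, and Xist, the RNA of the inactive X chromosome, had 0.035 ± 0.008 TPM (8, 8 and 13 counts). Kap made up 94.1% of the TPM of the 11 male-biased kidney genes. Cyp7b1, another of them, was lowest in replicate 2, while Kap and Slco1a1, an organic anion carrier (177, 221 and 140 TPM), were highest there. In the list of female-biased genes, Cyp2a4 and Cyp4a14 led.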

How the data were processed

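Per the labels' protocols, kidney mRNA was captured on oligo(dT) beads and the VAHTS Universal V6 kit was used for library preparation. Per the submitters' processing notes, fastp 0.23.4 and the builds GRCm38 and mm10 were used; an aligner, a counter, an annotation and a strand setting were not named there. The authors deposited whole-number counts per gene and TPM values for 55401 identifiers, of which GENCODE release M21 holds 55141. Each deposited TPM value equals the count divided by a length that is the same in all libraries, scaled to a fixed total.

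Of the 6 libraries, the 3 of the WT/Sed group were used, as 1 group with no comparison and hence no test. The means, SDs, CVs and ratios of highest to lowest library were computed from TPM (Python 3.11.15, pandas 2.3.3, matplotlib 3.10.9) for protein_coding genes of at least 1 TPM on average. The biological coefficient of variation came from edgeR 4.0.16 (R 4.3.3, TMM scaling, filterByExpr, an intercept only) on the counts of all biotypes. The script was tested on simulated data. Library totals were 28145261 to 43872779 counts; reads carry no molecular identifiers, so limits cover counting error only.

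The 26 marker lists, 28 function lists and 45 families matched by symbol were chosen with earlier results of these data known. Named were the 30 leading nuclear and 5 leading mitochondrial genes, up to 4 leading and 3 least even members of each list or family and members at 0, the 20 widest ratios and the 10 smallest CVs among genes of at least 10 TPM; some of these genes are not reported here. Chosen after values were seen were mt-Nd5, mt-Co2, mt-Atp6, Slc22a12, Xist, Malat1, Neat1 and the near-identical copies. Near-identical copies were found with blastn 2.17.0 on GENCODE transcripts. Promoters came from RefSeq (GRCm38.p6), where 16802 of 21833 symbols matched and the first entry of a symbol was used. Alternatives covered other scalings with DESeq2 1.42.0 size factors, filters, pseudocounts and leaving out each replicate.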

Additional observations from a re-analysis of the deposited data

How the results depend on the processing

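The counts and shares that describe these libraries were recomputed under each alternative. The share of the leading 10 genes was 24.3% of nuclear protein_coding TPM; it was 16.4% with mitochondrially encoded genes in the denominator and 10.5% by CPM in place of TPM, where 20 of the 30 leading genes were shared. Without 1 replicate it ranged from 23.8 to 24.7%. The count of genes at least 2-fold apart was 538; it was 239 after adding 1 TPM, 541 to 548 under other scalings and 121 to 492 without 1 replicate (492 without replicate 1). Those with replicate 2 highest numbered 373 in TPM and 390 to 399 under other scalings, an alternative chosen after seeing the data. The median CV was 5.56 to 9.05% without 1 replicate and 6.28 to 11.5% under other filters, and the biological coefficient of variation was 9.58 to 19.6% without 1 replicate. The cause of these shifts was not tested, apart from those that follow from the smaller number of libraries. Genes with a mean of at least 1 TPM numbered 11768. Other filters kept 11374 (at least 1 TPM in every library), 12725 (a mean of at least 0.5 TPM) and 13305 (at least 10 counts in every library). Of 47 lists, 47 kept the sign of replicate 2 minus replicate 3 with log2(TPM + 0.1) and 42 with TMM-scaled CPM; the 5 that did not had medians within 0.05 of 0. Rescaling TPM to nuclear genes multiplies every level by 1.490 to 1.498. No paired analysis was possible because only 1 group was described. With 3 libraries, depth limits the values of genes under 1 TPM.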

Other observations

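Outside the protein_coding genes, the highest level belonged to mt-Tp, a mitochondrial transfer RNA gene, at 5758 ± 325 TPM on 4555 to 7006 counts. The mitochondrial ribosomal RNAs mt-Rnr2 and mt-Rnr1 had 4496 ± 250 and 2997 ± 269 TPM in these oligo(dT)-enriched libraries. Among long noncoding RNAs, Malat1 had 439, 411 and 410 TPM, and Neat1, the scaffold of paraspeckles, had 217, 253 and 177 TPM. Neat1 was highest in replicate 2 and lowest in replicate 3. The counting is not stated to use strand, so reads of overlapping antisense genes cannot be told apart.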
